A study of Homo sapiens with 2 samples.

Results

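Shared peaks inside coding genes were examined in MDA-MB-231 cells, a triple-negative line from human breast cancer that is well established and mesenchymal-like. The peaks were selected on measured overlap and position: they are intervals of the PRMT6 peak list that overlapped an interval of the PARP1 peak list by at least 1 bp, lay more than 3 kb from the 5′ end of every annotated gene, and overlapped a protein-coding gene record. The rule found 998 of the 9080 PRMT6 peaks (10.99%, 95% exact binomial interval 10.4% to 11.7%), and these met 1002 of the 11651 PARP1 peaks. The data comprised 2 libraries from untreated cells of this line in standard serum culture, 1 made with an antibody against PRMT6 and 1 with an antibody against PARP1. A peak is a stretch of genome where sequenced fragments were denser than the peak caller's background, and the authors' caller scored each by the −log10 of its p-value. With 1 library per antibody there was no replicate, so no test and no p-value is given, every value describes these libraries, and intervals cover counting error only. Read depth was not part of the lists and is unknown. Positions are those of the lists and fit the GRCh38 build, in which 30.2% of PRMT6 peaks lay within 1 kb of a coding gene's 5′ end, against 4.04% with GRCh37 gene records.

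PRMT6 is a protein arginine methyltransferase whose best known chromatin mark is asymmetric dimethylation of arginine on histone H3. PARP1 binds DNA breaks and nucleosomes and builds chains of ADP-ribose on itself, on histones and on transcription factors. The study places both proteins in 1 complex with CRL4B, a ubiquitin ligase, and looked mainly at promoters. Gene bodies hold other kinds of regulatory DNA as well, among them enhancers in introns, insulators and start sites of shorter transcripts, of which only internal starts were compared here.

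The shared peaks included some of the strongest intervals of both lists. By mean rank over both lists, the first 10 lay in LMTK3, SIN3A, RTN4, ITGA3, TCF7L2, SVIL, TMC8, L3MBTL1, KIF5C and ATP9B. These ranks chose the genes named here and are given as a description. Host genes of the first 10 included a scaffold of histone deacetylase complexes (SIN3A), a shaper of the endoplasmic reticulum (RTN4), an integrin subunit for laminin adhesion (ITGA3), the main DNA-binding partner of beta-catenin (TCF7L2), an actin-binding protein of the cell cortex (SVIL), a reader of methylated histone lysines (L3MBTL1) and a kinesin motor subunit (KIF5C). In SIN3A, RTN4 and L3MBTL1 the PRMT6 peak reached over a start site that lies inside the gene record, the start of a shorter or alternative transcript.

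Such internal starts are where sequence could be read, since the promoter table used here covers 250 bases before and 50 after each RefSeq start and no GRCh38 genome was used. The 6 windows with the best mean rank are shown first, since they carry the strongest intragenic overlap of the 2 proteins at a known start. They come from RefSeq promoter windows of GRCh38.p14 and are written 5′ to 3′ on the strand of the gene, with the start site at base 251. Capitals mark matches on either strand to the words searched, none of which contains another. The GC box was searched as GGGCGG, the CCAAT box by the letters of its name, the ETS site as CCGGAAG, and the AP-1 site as TGAGTCA. The remaining words were TGACGTCA for the CRE, CACGTG for the E-box, TATAAA for the TATA box and GGAATG for the TEAD site. The choice of these windows and words was made after the peaks had been seen.
SIN3A, chr15:75451641-75451940, minus strand: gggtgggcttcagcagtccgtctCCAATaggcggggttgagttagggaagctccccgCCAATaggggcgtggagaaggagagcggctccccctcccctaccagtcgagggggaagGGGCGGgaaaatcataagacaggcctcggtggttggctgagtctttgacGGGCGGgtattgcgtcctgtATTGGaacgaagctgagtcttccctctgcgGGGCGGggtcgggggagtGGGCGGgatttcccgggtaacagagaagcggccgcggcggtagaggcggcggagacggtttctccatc
RTN4, chr2:55050549-55050848, minus strand: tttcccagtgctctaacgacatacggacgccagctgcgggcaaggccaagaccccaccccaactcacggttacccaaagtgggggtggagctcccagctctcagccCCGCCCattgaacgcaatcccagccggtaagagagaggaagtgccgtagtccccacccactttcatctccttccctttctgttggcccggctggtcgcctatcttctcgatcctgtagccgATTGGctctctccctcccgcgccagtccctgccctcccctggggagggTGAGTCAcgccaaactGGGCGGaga
L3MBTL1, chr20:43514191-43514490, plus strand: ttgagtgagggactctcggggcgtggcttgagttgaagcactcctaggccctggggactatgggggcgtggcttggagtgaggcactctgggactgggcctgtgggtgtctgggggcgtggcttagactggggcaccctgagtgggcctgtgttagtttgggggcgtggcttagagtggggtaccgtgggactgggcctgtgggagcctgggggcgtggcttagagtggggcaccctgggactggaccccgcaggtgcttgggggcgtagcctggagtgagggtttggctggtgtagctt
GNAI2, chr3:50235954-50236253, plus strand: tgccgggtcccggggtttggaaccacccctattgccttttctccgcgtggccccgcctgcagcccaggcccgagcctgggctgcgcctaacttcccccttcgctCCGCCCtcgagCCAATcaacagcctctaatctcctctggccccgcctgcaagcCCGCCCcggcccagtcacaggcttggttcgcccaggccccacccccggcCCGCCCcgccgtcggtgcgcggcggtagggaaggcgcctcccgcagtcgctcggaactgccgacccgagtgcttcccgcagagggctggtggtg
PFKFB4, chr3:48556754-48557053, minus strand: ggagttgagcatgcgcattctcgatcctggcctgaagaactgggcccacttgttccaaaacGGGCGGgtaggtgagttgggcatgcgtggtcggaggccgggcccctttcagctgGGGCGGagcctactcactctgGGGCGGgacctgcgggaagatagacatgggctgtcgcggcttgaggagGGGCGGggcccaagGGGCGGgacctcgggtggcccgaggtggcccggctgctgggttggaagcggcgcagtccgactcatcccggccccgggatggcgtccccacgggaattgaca
ANO10, chr3:43621962-43622261, minus strand: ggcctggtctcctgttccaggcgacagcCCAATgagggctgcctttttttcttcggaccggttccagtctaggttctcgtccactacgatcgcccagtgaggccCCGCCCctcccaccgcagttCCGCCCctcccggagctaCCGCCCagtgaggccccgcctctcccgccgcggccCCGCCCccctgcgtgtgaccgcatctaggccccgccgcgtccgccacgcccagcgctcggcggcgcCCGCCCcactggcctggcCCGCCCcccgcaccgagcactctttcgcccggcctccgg
GNAI2 encodes an inhibitory G protein subunit, PFKFB4 a bifunctional enzyme that sets the level of a glycolysis activator, and ANO10 a member of the anoctamin membrane proteins. Of these 6 windows, 5 held a GC box and 4 held a CCAAT box, and the RTN4 window also held 1 AP-1 site. The SIN3A window held 4 GC boxes and 3 CCAAT boxes, with 24 CpG dinucleotides in 300 bases. The L3MBTL1 window matched none of the words and stood apart by a repeat, with the 12 bases ggggcgtggctt present 5 times. It was the only one of the 113 windows compared, 1 for each shared peak that met any, in which any 12 bases occurred 4 times or more.

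Not all internal starts under shared peaks had this makeup. The 2 best-ranked windows with an AP-1 site and few CpG dinucleotides are shown as the contrasting form.
ADGRG1, chr16:57628380-57628679, plus strand: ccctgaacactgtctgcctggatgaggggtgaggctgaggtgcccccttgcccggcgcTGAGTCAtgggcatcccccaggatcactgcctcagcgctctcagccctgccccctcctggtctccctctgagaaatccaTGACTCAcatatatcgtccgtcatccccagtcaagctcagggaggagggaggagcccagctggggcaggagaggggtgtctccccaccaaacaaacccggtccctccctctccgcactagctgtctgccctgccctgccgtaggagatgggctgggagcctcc
TMEM127, chr2:96260546-96260845, minus strand: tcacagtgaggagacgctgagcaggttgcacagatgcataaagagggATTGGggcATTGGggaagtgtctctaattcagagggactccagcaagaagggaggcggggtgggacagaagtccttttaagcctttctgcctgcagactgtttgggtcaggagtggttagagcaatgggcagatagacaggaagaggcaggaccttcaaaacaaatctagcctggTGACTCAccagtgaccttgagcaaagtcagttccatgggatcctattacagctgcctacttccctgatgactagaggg
ADGRG1 encodes an adhesion G protein-coupled receptor and TMEM127 a membrane protein of the endolysosomal system. The ADGRG1 window held 2 AP-1 sites and 8 CpG dinucleotides, a ratio of observed to expected CpG of 0.261, against 0.838 in the SIN3A window. The TMEM127 window held 1 AP-1 site, 2 CCAAT boxes and 2 CpG dinucleotides, a ratio of 0.105. Among the 113 windows, an AP-1 site was found in 8 of the 30 with a CpG ratio under 0.6 and in 4 of the 83 with a higher ratio. The same split was not made for windows without a PRMT6 peak, so it is not shown to be particular to shared peaks.

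These examples belong to a broader pattern. Of the 998 shared peaks, 815 had a host gene in the promoter table, and 129 of these (15.8%, 13.4% to 18.5%) lay within 1 kb of an internal start that was itself more than 3 kb from every gene record's 5′ end. PRMT6 peaks in coding genes that did not meet a PARP1 peak lay there less often, in 64 of 1587 cases (4.03%, 3.12% to 5.12%). Read the other way, 66.8% of the intragenic PRMT6 peaks near an internal start were shared (129 of 193, 59.7% to 73.4%), against 31.1% of those farther away (29.1% to 33.0%). Of the 145 shared peaks within 3 kb of an internal start, 114 had their centre within 500 bp of it, and the median centre lay 128 bp upstream. Shared peaks within 1 kb of an internal start had median PRMT6 and PARP1 scores of 7.59 and 8.06, and those farther away 6.61 and 8.22. The highest score decile of the PRMT6 list held 27.1% of the former (19.7% to 35.7%) and 14.6% of the latter (12.02% to 17.4%). Sharing of intragenic PRMT6 peaks also rose with score, from 3.81% in the lowest decile to 97.5% in the highest. Peaks near internal starts and farther away were not compared at like scores, so location and score were not separated. The remaining 686 assessed shared peaks, the large majority, lay more than 1 kb from any such start.

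Internal starts under shared peaks were rich in CpG. Of 3336 internal start windows in 2198 coding genes, 134 (4.02%) met a shared peak. The share was 9.76% among the 1045 windows with a CpG ratio of at least 0.6 (8.03% to 11.7%) and 1.397% among the 2291 windows below it (0.957% to 1.97%). Median GC content was 65.3% in the 134 windows and 53.0% in the 3147 windows without any PRMT6 peak, and the median CpG ratio was 0.805 and 0.342. A GC box was present in 70.1% of the 134 windows, in 32.3% of the windows without a PRMT6 peak and in 44.95% of all windows of the promoter table. CCAAT boxes followed the same order, at 53.0%, 32.1% and 34.6%, as did ETS sites, at 17.9%, 4.67% and 10.3%. AP-1 sites were present in 11.2% (6.40% to 17.8%), 6.23% and 4.95%, and E-boxes in 11.9%, 5.24% and 7.26%. TATA boxes went the other way, at 2.24% (0.464% to 6.40%), 13.3% and 11.5%. TEAD sites were present in 9.70%, 14.7% and 14.03%, with an interval of 5.27% to 16.02% for the 134 windows, and CREs in 4.48%, 1.11% and 1.85%. GC content and the GC-rich words move together, so these shares are not separate observations. The 51 internal start windows under a PRMT6 peak that did not meet a PARP1 peak had a like makeup, with a median GC content of 66.7%, a median CpG ratio of 0.781 and a GC box in 68.6% (54.1% to 80.9%).

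The PRMT6 and PARP1 intervals of a pair lay close to each other. The median distance between centres was 62 bp, and 72.9% of the shared peaks had centres within 100 bp (70.1% to 75.7%). Overlap was a median of 265 bp and covered at least 50% of both intervals in 80.6% of the shared peaks. In 29.96% the PARP1 interval lay wholly inside the PRMT6 interval and in 10.02% the reverse held. A single PARP1 peak was met by 994 of the 998. Few pairs lay at the overlap limit. The smallest overlaps were 2 bp in RBPJ, 8 bp in ANKRD11 and 10 bp in NF2, and just outside the limit the smallest gaps were 5, 6 and 17 bp. Only 36 of the 1925 unshared intragenic PRMT6 peaks (1.87%) had a PARP1 peak within 1 kb.

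Scores varied widely among the shared peaks. PRMT6 scores ran from 3.12 to 39.1 with a median of 6.76, and PARP1 scores from 3.04 to 31.0 with a median of 8.25. The median width was 359 bp for the PRMT6 interval, where 288 bp was the smallest width in the list, and 325.5 bp for the PARP1 interval. Exactly the smallest width was found in 30.5% of the shared intervals and in 83.4% of the unshared intragenic PRMT6 peaks, whose median score was 4.79. A wider interval meets another list more easily, so the widths are partly set by the way the peaks were chosen. Across the 998 pairs the ranks in both lists gave a Spearman correlation of 0.43, which is over peaks of a single pair of libraries and describes these only. Peaks of the highest decile in both lists numbered 86, and 101 lay in the lower 50% of both.

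Some pairs ranked far apart. The largest gap toward PRMT6 was in NEK6, a mitotic kinase gene, where the peak stood at percentile 78.9 for PRMT6 and 3.34 for PARP1. RUNX1, a transcription factor gene, followed with 78.9 and 4.17, and then LRRC8A, RABGEF1 and TPM3. The largest gap toward PARP1 was in GLI2, a transcription factor gene of the Hedgehog pathway, at percentile 12.04 for PRMT6 and 96.8 for PARP1. EHBP1, LIPA, MSI1 and CCN4 followed, all with PRMT6 percentiles between 11.6 and 13.1 and PARP1 percentiles of at least 91.1. PARP1 had the higher percentile in 52.6% of the shared peaks in genes (49.5% to 55.7%). That share was 62.3% among the 674 shared peaks outside coding genes (58.5% to 66.0%) and 44.1% among the 2107 shared peaks at coding promoters (42.0% to 46.3%), so the balance of the 2 lists shifted with location.

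Fewer PRMT6 peaks were shared inside genes than over the whole list. Of the 2923 intragenic PRMT6 peaks, 34.1% met a PARP1 peak (32.4% to 35.9%), and of the 3591 intragenic PARP1 peaks, 27.9% met a PRMT6 peak (26.4% to 29.4%). Over chromosomes 1 to 22 and X the shares were 46.4% and 36.4%. Outside coding genes 30.1% of PRMT6 peaks were shared (28.2% to 32.1%) and at coding promoters 69.1% (67.4% to 70.7%). Overlap is what defined the shared peaks, so these shares are a description. They moved with the width and score of the intervals taken in. Without peaks of the smallest width of each list, 62.5% of intragenic PRMT6 peaks were shared, which left 633 shared peaks in 555 genes, and the higher-scoring 50% of each list left 579 in 514 genes. In the PRMT6 list the difference between locations lay mainly in the weaker peaks. In the highest PRMT6 decile 97.5% of intragenic peaks were shared (93.6% to 99.3%), and in the lowest 3.81% were (2.15% to 6.20%). Between the second and the fifth decile the intragenic share stayed between 16.2% and 19.0%, while it then climbed through 36.4%, 55.4% and 74.8% in the 3 deciles that follow. In the PARP1 list the share of intragenic peaks met by PRMT6 ran from 8.82% in the lowest decile to 81.6% in the highest (76.2% to 86.3%).

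**Figure D1:**
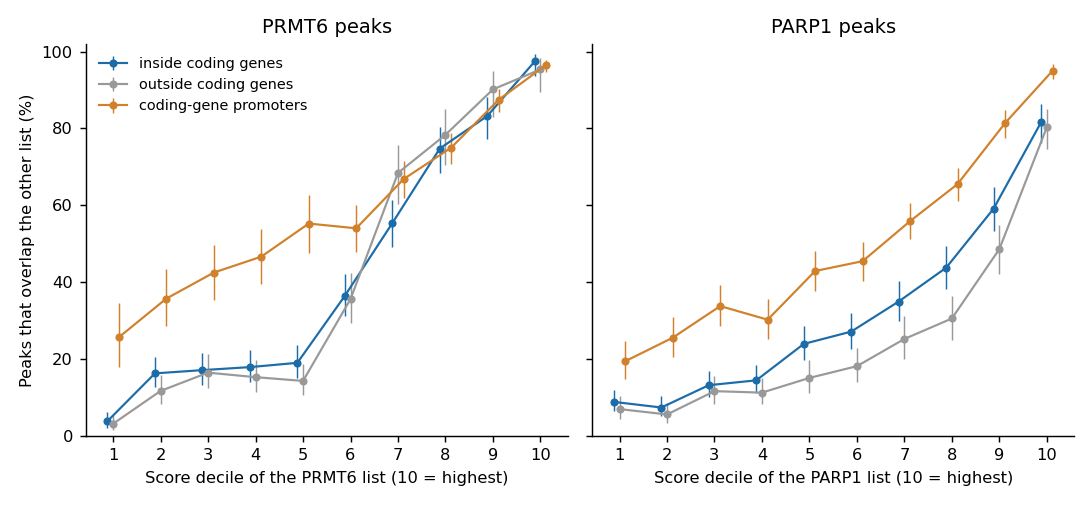
Percentage of peaks that overlap the other list (y axis) by score decile (x axis, 10 the highest) for the PRMT6 list on the left and the PARP1 list on the right, with 95% exact binomial intervals. Intragenic PRMT6 peaks (blue) rise from 3.81% to 97.5% and meet the promoter peaks (orange) in the upper deciles, while intragenic PARP1 peaks end at 81.6%.

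Shared peaks were denser inside coding genes than outside them. They numbered 0.885 per Mb of gene sequence more than 3 kb from any 5′ end (exact Poisson interval 0.831 to 0.942) and 0.482 per Mb of the other sequence at that distance (0.447 to 0.520), a ratio of 1.84. Unshared PRMT6 peaks gave 1.71 and 1.12 per Mb, a ratio of 1.53. Density differed widely between chromosomes. It was 3.32 per Mb on chromosome 19, 2.11 on chromosome 17 and 2.02 on chromosome 22, and it was 0.373 on chromosome 4 and 0.238 on X. On chromosomes 19 and 22, 50% and 50.8% of intragenic PRMT6 peaks were shared, against 22.6% on chromosome 4 (15.1% to 31.8%) and 25.4% on chromosome 2 (20.0% to 31.5%). Chromosomes 17, 19 and 22 are known as rich in genes and in GC, and neither was separated from the chromosome here.

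Pooled over coding genes, the shared peaks were sparser at greater distance from the 5′ end. Only long genes reach the far bands, so distance and gene length were not separated in these densities. The median distance was 34.9 kb, with the middle 50% of the peaks between 14.9 and 94.3 kb. In the bands that follow, a peak inside several coding gene records counted once for each record. From 3 to 10 kb shared peaks numbered 1.73 per Mb of gene sequence, from 10 to 30 kb 1.41, from 30 to 100 kb 0.900 and beyond 100 kb 0.491. Unshared PRMT6 peaks fell less steeply, from 2.24 through 2.19 and 1.90 to 1.27 per Mb. Counted in this way, the share of PRMT6 peaks that met PARP1 therefore went from 43.6% in the nearest band (38.6% to 48.6%) through 39.2% and 32.1% to 27.9% in the farthest (24.9% to 31.0%). Relative to gene length the peaks were spread almost evenly. The 4 equal parts of the host gene, counted from its 5′ end, held 25.1%, 26.7%, 24.5% and 23.8% of the peaks, and the sequence that could hold them was divided 20.4%, 26.1%, 26.9% and 26.6%. The part nearest the 5′ end thus held somewhat more than its portion of the sequence (interval 22.4% to 27.9%). Without peaks within 3 kb of any start of the promoter table it held 22.6% (19.8% to 25.5%), an interval that includes the 20.4%. The sequence portion was not counted again for that setting.

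**Figure D2:**
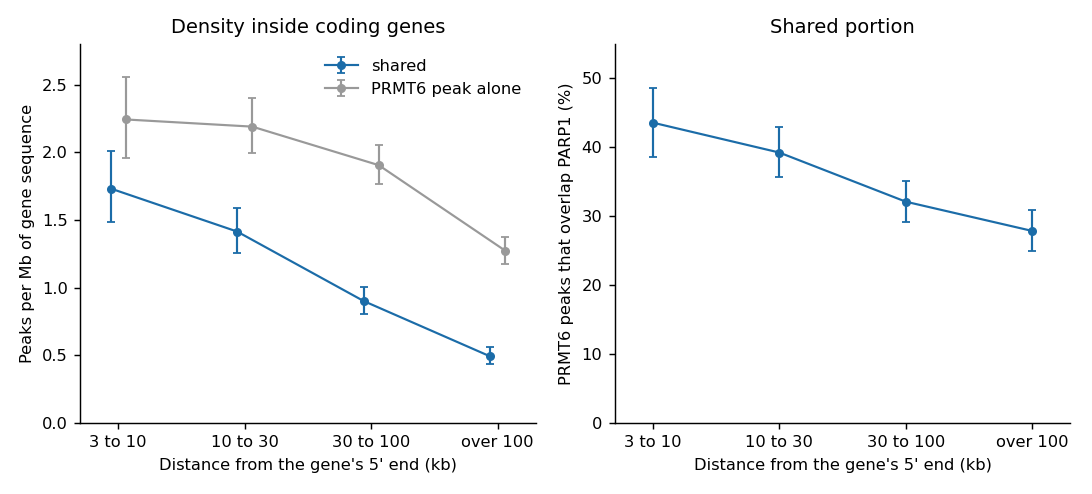
Left, peaks per Mb of coding-gene sequence (y axis) in 4 bands of distance from the gene's 5′ end (x axis, kb) for shared peaks (blue) and PRMT6 peaks that do not meet PARP1 (grey), with exact Poisson intervals. Right, the percentage of PRMT6 peaks shared with PARP1 in the same bands with exact binomial intervals, which goes from 43.6% to 27.9%. In both panels a peak inside several coding gene records counts once for each record.

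Peaks near the 3 kb limit and far from the 5′ end of their host gene show what the rule took in. Just inside it lay peaks in SHROOM2 (3023 bp from the nearest gene start), GNG7 (3045 bp), PHF20 (3064 bp), SEMA3C (3071 bp) and PPM1A (3076 bp), with PRMT6 scores from 3.63 to 8.26. Just outside it lay shared peaks in KCNMA1 and GEM (both 2965 bp), RASSF3 (2948 bp), BRD2 (2911 bp) and FRMD8 (2865 bp), with scores from 6.05 to 14.002. At the other end, and with a peak in several records assigned to the one whose 5′ end is nearest, the peak farthest from its host's 5′ end lay 1345 kb into NRXN3, a neuronal adhesion gene, with scores of 5.17 and 5.26. OPCML, DLGAP1, ZFHX3 and SHANK2 followed, at 900 to 771 kb. The DLGAP1 peak was the strong one of this group, with scores of 18.9 and 19.0 at 831 kb from the 5′ end.

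The shared peaks lay in 857 of 19974 protein-coding gene records (4.29%). Among records of at least 10 kb the background was 5.85%. The share of hosts differed with gene length. Hosts made up 1.502% of the genes of the fourth length decile, 10.9 to 16.4 kb (1.02% to 2.14%), and 13.0% of the longest, over 152.3 kb (11.5% to 14.5%). The shortest decile ends at 3.12 kb and could hold almost none by the rule. A single shared peak was found in 736 hosts and 2 or more in 121 (14.1%), which together held 279 of the 998.

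Hosts with 5 shared peaks numbered 2 and those with 4 numbered 6, while 23 genes tied at 3, of which the 2 with the best mean rank are named as well. PRKAG2, the regulatory gamma subunit of the energy sensor AMPK, held 5 shared peaks between 80.3 and 189.2 kb from its 5′ end, with PRMT6 scores from 4.50 to 13.4 and PARP1 scores from 7.63 to 16.9. DST, a cytoskeletal linker of hemidesmosomes, held 5 that were spread from 16.1 to 411.9 kb. IGF2BP2, an RNA-binding protein, held 4 in 2 groups, at 11.3 and 17.2 kb and at 166.3 and 168.4 kb. Its strongest peak, chr3:185658467-185658954, scored 17.6 for PRMT6 and 21.0 for PARP1. ABR, a regulator of small GTPases, held 4 with PRMT6 scores of at least 10.3, and the highest was 20.4. BCAR3, an adaptor that binds the adhesion scaffold BCAR1, also held 4, at 43.5, 68.3, 109.7 and 146.3 kb. NRP1, a co-receptor for semaphorins and VEGF, held 4 between 61.2 and 96.5 kb, in a record with no unshared PRMT6 peak. FRMD4A, a scaffold of epithelial polarity, and PRKCH, a protein kinase C gene, held 4 each, all beyond 168 kb from the 5′ end. GNAI2 packed 3 into a record of 32.3 kb, 9.29 per 100 kb, and 2 of these covered an internal start. RANBP2 also counts 3, but its record spans 1122.8 kb and all 3 peaks lay in another coding gene record as well.

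**Figure D3:**
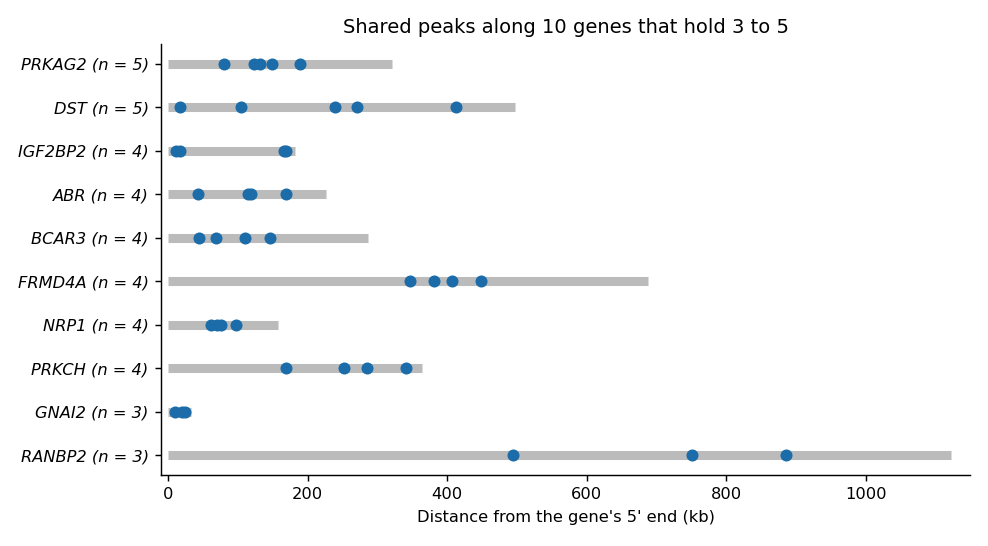
Shared peaks (blue points) along 10 coding genes, namely the 8 with 4 or 5 and the 2 of best mean rank among the 23 with 3, as distance from the gene's 5′ end in kb (x axis), with the grey bar drawn to the length of the gene record. PRKAG2 and DST hold 5 each, IGF2BP2 shows a pair of close groups, and the FRMD4A peaks lie between 346.2 and 448.7 kb.

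Shared peaks lay near each other more often than unshared ones. Another shared intragenic peak was found within 12500 bp of 11.4% of them (9.52% to 13.6%), against 5.97% for unshared intragenic PRMT6 peaks among themselves (4.96% to 7.13%) and 8.16% for shared peaks outside coding genes (6.21% to 10.5%). Within 5 kb the values were 4.21%, 0.519% and 3.26%. The 114 peaks with such a neighbour formed 54 groups, of which the largest held 3.

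Promoters of the host genes were occupied about as often as those of other genes. A PRMT6 peak shared with PARP1 marked the start, within 3 kb on either side, of 14.8% of the hosts (12.52% to 17.4%). The values were 13.4% for genes with only unshared intragenic PRMT6 peaks and 13.3% for genes without any. In the longest 25% of genes, which supplied 469 hosts, they were 14.1% (11.1% to 17.6%), 11.1% and 10.7%. None of the hosts of the first 10 peaks had a shared peak at its own gene start, and SIN3A had a PARP1 peak there. Records of long noncoding RNA were met by 5.31% of the shared peaks (4.003% to 6.89%) and by 5.71% of the unshared intragenic PRMT6 peaks (4.72% to 6.85%), with intervals that overlapped.

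Host genes were then counted in lists chosen around the biology of this cell line, with lists of other kinds of genes beside them. The lists were chosen with earlier results of these data known. Their shares therefore describe these peaks and cannot show an excess. Genes of integrins, focal adhesions and actin held shared peaks most often, in 17 of 44 genes (38.6%, 24.4% to 54.5%), against 4.29% of all coding genes and 8.52% at the rates of their length deciles. Of the 27 others, 11 held only unshared PRMT6 peaks. ITGA3 carried the highest ranked of these peaks, chr17:50062305-50062962, 6.52 kb from the 5′ end, with scores of 22.6 for PRMT6 and 27.9 for PARP1. The integrin subunits ITGA2, ITGA5 and ITGA6 carried 1 each, with PRMT6 scores of 4.50, 6.82 and 6.20. Paxillin (PXN), an adaptor of focal adhesions, held 2 peaks 3.4 kb apart with PARP1 scores of 15.4 and 18.1. BCAR1, the scaffold p130Cas, held 1 with scores of 9.85 and 14.1. SEPTIN9, a septin of the cytoskeleton, held 2, and LPP, a LIM protein of adhesion sites, held 3, one of them 478.9 kb from the 5′ end. The actin cross-linkers ACTN1 and ACTN4, the plakin PLEC and the myosins MYH9 and MYO9B were also among the 17.

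AP-1 and Hippo genes came next, with 7 of 26 (26.9%, 11.6% to 47.8%) against 4.16% at the rates of their length deciles. ATF3, a stress-induced transcription factor, had the best mean rank of these, with scores of 16.4 and 21.0 at 43.1 kb from the 5′ end. AXL, a receptor tyrosine kinase known as a YAP target, had a peak at 6.59 kb with scores of 18.6 and 11.4, and it lay 656 bp from an internal start. VGLL4, a cofactor that binds TEAD proteins, scored 8.75 and 14.1. TEAD3, one of the DNA-binding TEAD proteins, held 2 peaks within 1 kb of each other, AMOTL2 and FOSL2 held 1 each, and the peak in YAP1 itself was weak, at 4.48 and 4.01.

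**Figure D4:**
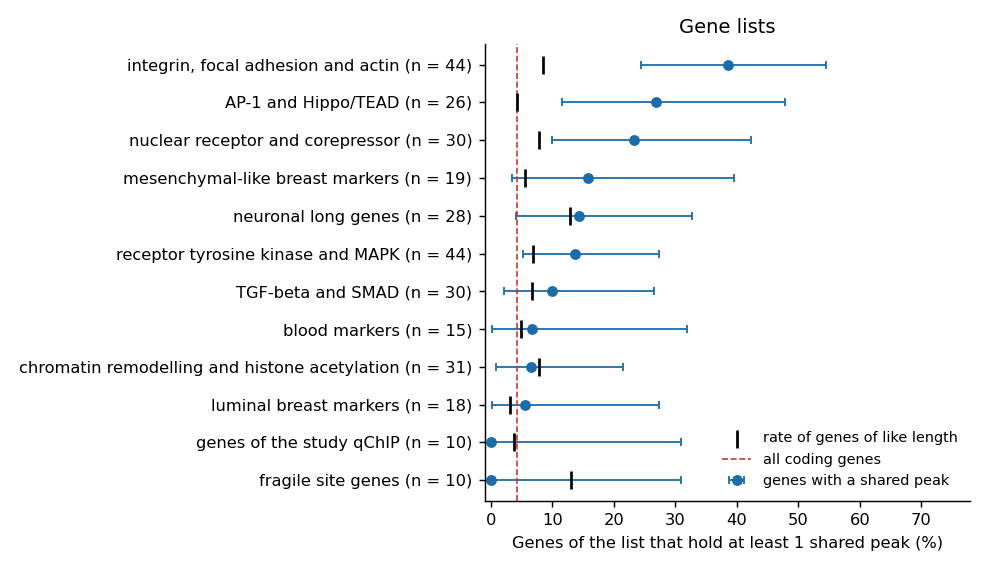
Percentage of genes that hold at least 1 shared peak (x axis) for 12 gene lists (y axis, with the number of genes). Blue points carry 95% exact binomial intervals, and the dashed red line marks the 4.29% of all coding genes. Black ticks mark the rate of the same length deciles, a coarse match for the lists of very long genes. The integrin, focal adhesion and actin list stands highest at 38.6%, and 2 lists stand at 0.

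Nuclear receptor and corepressor genes held shared peaks in 7 of 30 cases (23.3%, 9.93% to 42.3%, against 7.83% by length). RARA, a retinoic acid receptor, carried 1 that met an internal start window, with scores of 8.83 and 7.96. PPARG, RARB, NR3C1, NCOA2 and HDAC5 carried 1 each. Receptor tyrosine kinase and MAPK genes followed with 6 of 44 (13.6%, 5.17% to 27.4%, against 6.86%). EGFR held 2, at 55.2 and 113.8 kb, with PARP1 scores of 15.9 and 13.3, and IGF1R held 2 with PRMT6 scores of 5.34 each. EPHB2, SPRED2, RASA3 and NF1 held 1 each. TGF-beta genes gave 3 of 30 (10.0%, 2.11% to 26.5%, against 6.61%), namely LTBP1, SMAD3 and SMURF2. Chromatin remodelling and histone acetylation genes gave 2 of 31 (6.45%, 0.791% to 21.4%, against 7.84%), with 2 peaks in ARID1A and 1 in PBRM1, the latter with scores of 18.1 and 18.3. Shared promoter peaks in that list were found for 10 of the 31 genes, against 12.7% of all coding genes.

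A pair of lists held very long genes. Of 10 genes at common fragile sites, which are among the longest in the genome, none held a shared peak (0%, upper limit 30.8%), while 9 held PRMT6 peaks that did not meet PARP1. Genes of neuronal adhesion and excitability gave 4 of 28 (14.3%, 4.03% to 32.7%, against 12.8% by length), in CTNNA2, KCNMA1, OPCML and NRXN3. In that list 12 held only unshared PRMT6 peaks (42.9%, against 25.5% by length). For the fragile site genes the rate of their length deciles was 13.0% for shared peaks and 25.9% for unshared peaks alone. The longest decile starts at 152.3 kb, while the median length was 1408 kb in the fragile site list and 1007 kb in the neuronal list. Rates by length therefore match these 2 lists only coarsely, and no excess or lack is read from them.

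Cell type lists were small. Against 4.29% of all coding genes, markers of mesenchymal-like breast lines gave 3 of 19 (15.8%, 3.38% to 39.6%, against 5.51% by length), in ETS1 with 2 peaks, AXL and RUNX1. Luminal breast markers gave 1 of 18, in KRT8 (5.56%, against 3.10% by length), and blood markers 1 of 15, in VAV1 (6.67%, against 4.84%), so all 3 intervals held the rate by length. Shared promoter peaks were found for 5 mesenchymal-like, 1 luminal and 0 blood markers, against 12.7% of all coding genes. The intervals of these lists overlapped, so peaks inside genes did not separate the line from other cell types at these numbers. Of the 10 genes that the study tested one by one by chromatin immunoprecipitation, none held a shared intragenic peak (upper limit 30.8%, against 3.82% by length). A shared promoter peak was found for 6 of them, against 12.7% of all coding genes. The study took these genes from promoter targets in its own sequencing of both proteins. Their promoter share is thus partly set by that choice and is no independent support.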

How the data were processed

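Chromatin of MDA-MB-231 cells was profiled with 1 antibody against PRMT6 and 1 against PARP1. The study's methods describe CUT&Tag, whereas the labels combine that name with adaptor ligation to precipitated DNA, so the library chemistry cannot be told apart. The submitters' processing notes name CASAVA 1.4, Bowtie 0.12.8, MACS, MACS2 and hg19, with no order. The authors called peaks in each library separately and deposited intervals with the −log10 p-value of the caller as the score. Thresholds, duplicate removal and control libraries are not given in the sources used here. The score grows with depth, so percentiles and ranks within a list were used. Although hg19 is named, positions fit GRCh38, and GRCh38 records were used.

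Overlaps on chromosomes 1 to 22 and X were found with numpy 2.4.6 and pandas 2.3.3 under Python 3.11.15, and bedtools 2.31.1 gave the same 4206 shared PRMT6 peaks. Genes were RefSeq records of GRCh38.p14, each with a single 5′ end, and 19974 were protein-coding. Strand came from the RefSeq promoter table for 15812 of these and from GENCODE, by symbol, for 3862. Both ends of the other 300 counted as 5′ ends. Peaks of annotated starts inside records were therefore kept and were examined with the promoter table, which holds no window on chromosome 8. The observed to expected CpG ratio is the CpG number times the length over the product of C and G numbers. Shares carry 95% exact (Clopper-Pearson) intervals from scipy 1.17.1, which treat peaks as independent. Rates by length are the mean over a list of the host share in each gene's length decile.

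Named were the 10 peaks of best mean rank, the 10 genes with the most (ties, which decided the last 2, by best mean rank), the 5 largest percentile gaps each way, the 5 farthest from the 5′ end, 5 on each side of the 3 kb limit, and list genes with a shared peak, of which some are counted but not reported here by name. Members, gene lists and comparisons were chosen with earlier results of these data known. Internal starts, printed windows and motif words were chosen after the values were seen. Exons, introns and sequence under other peaks were not analysed here. Code was tested on simulated peaks.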

Additional observations from a re-analysis of the deposited data

How the results depend on the processing

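Of 85 alternative values, 62 stayed within 1.5 times the count or within the interval of the value reported, and 23 moved. With the higher-scoring 50% of each list, 579 shared peaks in 514 host genes remained, the PRMT6 and PARP1 shares rose to 49.7% and 37.1%, the median distance was 30.4 kb and shared promoter peaks were found for 12.3% of hosts. Without peaks of the smallest width there were 633 in 555 genes and the PRMT6 share was 62.5%. Overlap of at least 50% of both intervals gave 27.5% and 22.4%, and cutting the PARP1 list to the length of the PRMT6 list 31.3% and 34.6%. With a limit of 1 kb in place of 3 kb the median distance was 29.9 kb, the share in the part nearest the 5′ end 29.1% and the share of hosts with a shared promoter peak 21.5%, and with 10 kb the first 2 were 51.8 kb and 19.3%. Promoter peaks of hosts were still counted within 3 kb. Under the 1 kb limit a peak 1 to 3 kb from its host's 5′ end therefore counted as both, and 21.5% is raised by that. Leaving out peaks within 3 kb of any start of the promoter table, an alternative chosen after the data were seen, gave 31.6%, 26.0% and a median of 39.1 kb. Neighbours were found within 5 kb for 4.21% and within 25 kb for 16.1%. All gene lists stayed within their intervals when genes under 10 kb were left out. The cause of these moves was not tested beyond what each setting removes.

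No paired analysis was possible because the 2 antibodies gave a single library each, and leaving out a library was not an option. Depth is unknown, so an interval missing from a list is not shown to lack the protein.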
